A study of Canis lupus familiaris with 25 samples.

Results

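PMEPA1 was followed through 25 RNA-Seq libraries of canine prostate, as 1 gene of the 32220 gene IDs counted in each library. It was taken by its Ensembl ID, ENSCAFG00000031382, and its row was present in all 25 libraries. PMEPA1, also called TMEPAI, is a membrane-anchored protein of the prostate epithelium and other tissues that androgens and TGF-beta induce. Its cytoplasmic part holds PY motifs, through which it binds ubiquitin ligases of the NEDD4 family, and a motif that binds receptor-regulated SMAD proteins, by which it dampens TGF-beta signalling and can lower the level of the androgen receptor. In human prostate cancer its expression has been described both as lost and as raised, depending on the stage and on androgen supply.

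The study compared prostate tissue with ultrasound-guided fine-needle aspirates (US-FNA), which draw loose cells through a thin needle, and asked whether aspirates can serve for gene expression analysis. The 25 samples fell into 9 malignant tissues, 9 non-malignant tissues, 2 malignant US-FNA samples and 5 non-malignant US-FNA samples. All dogs were male. The malignant tissues were prostate carcinomas of 3 intact and 6 neutered dogs aged 8 to 12 years, the non-malignant tissues came from intact dogs aged 1 to 16 years, the malignant aspirates came from neutered dogs aged 9 and 10 years, and the non-malignant aspirates came from intact dogs aged 4 to 10 years. Tissue was taken post mortem, and the RNA of tissues and aspirates was isolated with different kits, so that sample type and extraction cannot be told apart. The labels describe the aspirates as taken in living dogs, but the study's methods add that in a dog euthanised for its carcinoma aspiration was repeated right after death. The 2 malignant aspirates limit every comparison in which they stand. The study measured RNA integrity in US-4 but obtained no value for US-3, which it accepted on its RNA size trace. It scored blood contamination as strong in US-3 and as weak in US-4. By the study's sample list US-3 belongs to the euthanised dog, as the sample listed in addition to an earlier one. Tissue of the same dog was also collected. The study's overview lists it apart from the dogs sampled only post mortem, under which it counts the 9 sequenced malignant tissues. By that count it was not among them, but the labels name no dogs.

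Between 3355926 and 6594032 reads per library were counted on genes. KLK2 (ENSCAFG00000002907), the canine prostate-specific secretory kallikrein, took 15.7 to 48.2% of these reads in the non-malignant tissues and 29.6 to 43.8% in the non-malignant aspirates, but at most 0.0657% in the malignant tissues. The level of PMEPA1 was therefore expressed as CPM, the gene's read count scaled to a common library size, with KLK2 left out of the library total, which then came to 2361751 to 5932319 reads per library. Secretory markers were set beside the labelled diagnoses. The study had named them as lower in the malignant samples of these same libraries, so they are no independent check of the labels. KLK4, another prostatic kallikrein, lay at 220.1 to 591.8 CPM in the 14 non-malignant samples and at 0.169 to 6.02 CPM in the 11 malignant ones, and ACPP, prostatic acid phosphatase, at 81.2 to 500.9 CPM against 0.899 to 23.7 CPM. The 5 globin genes, markers of red blood cells, made up 0.0245 to 3.98% of all reads on genes, KLK2 included, in the aspirates. In the tissues they made up at most 0.0142%.

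In the 9 malignant tissues PMEPA1 reached 93.7 CPM in the lowest sample, PT-9, a median of 167 CPM in PT-7 and 435.1 CPM in the highest sample, PT-6. In the 9 non-malignant tissues the lowest level was 4.10 CPM in PT-12, the median 9.79 CPM in PT-18 and the highest 19.6 CPM in PT-10. Both groups were thus completely separated, and the lowest malignant tissue lay 4.77-fold above the highest non-malignant tissue. In the non-malignant aspirates PMEPA1 was at 3.29 CPM in US-7, 4.06 CPM in US-32, 7.16 CPM in US-40, 9.08 CPM in US-15 and 28.4 CPM in US-13. Of these, US-40 and US-15 lay within the range of the non-malignant tissues, US-7 and US-32 just below it and US-13 above it. In the malignant aspirates PMEPA1 was at 455.5 CPM in US-4, the highest value of all 25 samples, and at 104 CPM in US-3, near the lower end of the malignant tissues.

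Each of the 11 malignant samples exceeded each of the 14 non-malignant samples, the closest pair being PT-9 and US-13 at a ratio of 3.30. With KLK2 kept in the library total this ratio was 4.69, since the total of US-13 then grew, and with TMM-scaled values it was 2.96, between PT-8 and US-13. All 11 malignant samples stayed above all 14 non-malignant samples under each of these scalings.

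**Figure D1:**
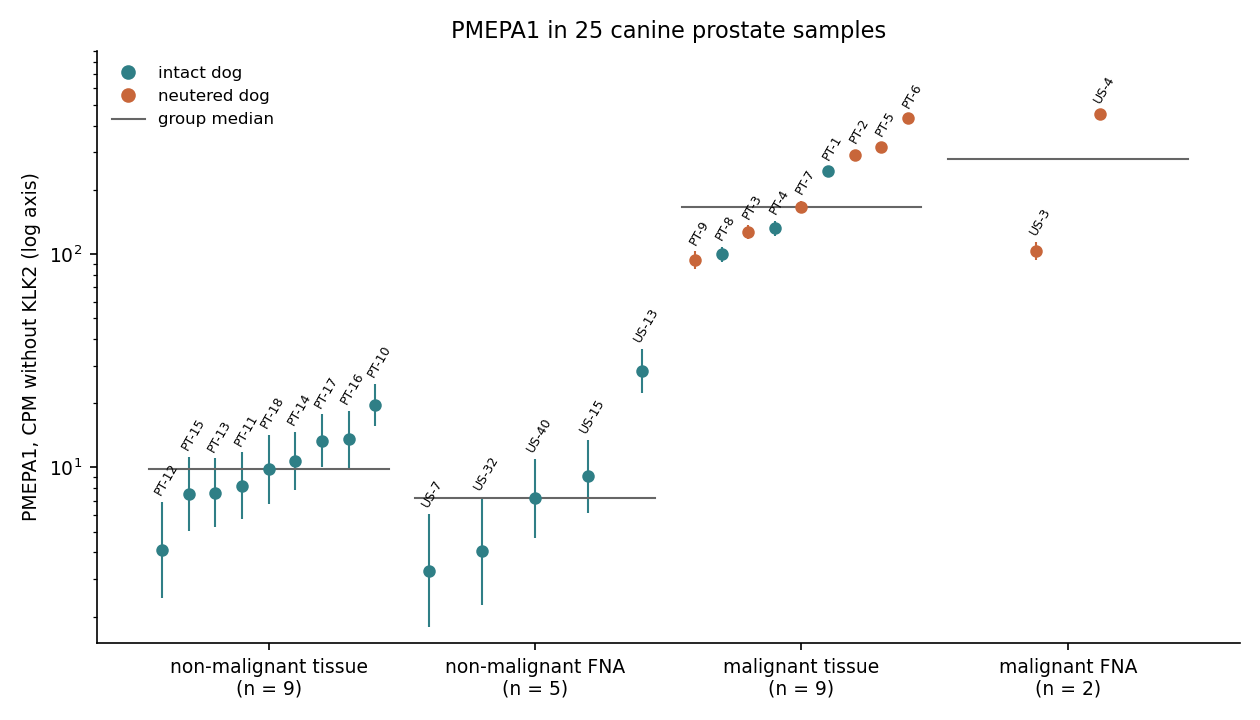
PMEPA1 level of each sample in CPM of all reads except KLK2 (log axis), by group, with 95% Wilson intervals for counting error (bars), group medians (lines) and the reproductive status of the dog (colour). All 11 malignant samples, from 93.7 to 455.5 CPM, lie above all 14 non-malignant samples, from 3.29 to 28.4 CPM.

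These levels rested on 411 to 2296 PMEPA1 reads in the malignant samples and on 10 to 75 reads in the non-malignant samples. The 95% Wilson interval, which covers counting error only, ran from 418 to 453 CPM in PT-6 and from 85.1 to 103 CPM in PT-9. In US-7, with 10 reads, it ran from 1.79 to 6.05 CPM. Among the non-malignant tissues the intervals of PT-12 (2.44 to 6.88 CPM) and PT-10 (15.7 to 24.6 CPM), the lowest and the highest of 9 dogs, did not overlap. The highest level was 4.79 times the lowest among the non-malignant tissues and 4.65 times among the malignant tissues, with a coefficient of variation of 43.3% and 55.5%. Within the ordered malignant samples, US-4 and PT-6 had overlapping intervals, as had PT-5 and PT-2, PT-3 and PT-4, and the group of PT-9, PT-8 and US-3.

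The first comparison asked how malignant and non-malignant tissue differed. PMEPA1 was higher in malignant tissue, with a mean of 212 ± 118 CPM (SD, n = 9) against 10.5 ± 4.54 CPM (SD, n = 9). The log2 fold change was 4.22 (SE 0.36, 95% interval 3.47 to 4.96), which is 18.6-fold (11.1 to 31.2), with an FDR of 6.01e-08 in the quasi-likelihood test of edgeR. At the FDR threshold of 0.00001, used here for the study's own contrasts with non-malignant tissue, 6.41% of the 15124 tested genes were called. Of the tested genes, 3.35% were called higher in malignant tissue. PMEPA1 ranked 56th by p-value and 844th by log2 fold change among the tested genes, whose median log2 fold change was 0.16. In an exact two-sided permutation test of log2(CPM + 1) the groups differed by 4.12 (p = 4.11e-05, the smallest this design allows; 0.000288 after Benjamini-Hochberg adjustment over 7 group comparisons). As these were bulk samples, fewer cells of a type and less RNA per cell cannot be told apart in any of these levels.

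Marker genes of secretion and proliferation moved with the diagnosis in the same comparison. The study had already named the genes listed here as changed in these samples, so their directions were known beforehand. KLK4 fell by 7.84 on the log2 scale (edgeR FDR 6.3e-09) and ACPP was lower too (edgeR FDR 1.23e-06). MKI67 (ENSCAFG00000013255), a marker of cycling cells, rose with a log2 fold change of 5.78 (edgeR FDR 3.81e-06), and PCNA, the DNA replication clamp, with one of 2.31 (edgeR FDR 5.9e-07). CTNNB1, which encodes beta-catenin, rose with a log2 fold change of 2.47 (edgeR FDR 4.22e-06). MYC, a transcription factor of cell growth, had a log2 fold change of 1.53 and did not pass the threshold (edgeR FDR 1.81e-05). The part of the secretory and proliferation markers in the PMEPA1 difference was not tested.

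Diagnosis overlapped with castration, because all 14 non-malignant samples came from intact dogs. Among intact dogs only, PMEPA1 was at 245 CPM in PT-1, 132 CPM in PT-4 and 99.9 CPM in PT-8, a mean of 159 ± 76.0 CPM (SD, n = 3), and each of the 3 lay above all 9 non-malignant tissues. The log2 fold change was 3.77 (SE 0.35, 95% interval 3.03 to 4.52), or 13.7-fold, with an edgeR FDR of 2.36e-05, in a comparison that called 36.5% of genes at an FDR of 0.05. PMEPA1 ranked 18th of 15117 genes by p-value there. The exact permutation test gave a difference of 3.79 (p = 0.00455, the smallest possible with 3 against 9 samples; 0.0159 adjusted). Thus malignant tissue exceeded non-malignant tissue also where the reproductive status was the same. Restricted to the 6 neutered dogs, the log2 fold change against the intact non-malignant tissues was 4.39 (edgeR FDR 1.51e-07), a comparison in which status and diagnosis cannot be told apart. The share of all genes called was not computed for this fit.

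Whether neutering itself went with another PMEPA1 level was examined within the malignant tissues. In neutered dogs the level was 93.7 CPM in PT-9, 127 CPM in PT-3, 167 CPM in PT-7, 293 CPM in PT-2, 319 CPM in PT-5 and 435.1 CPM in PT-6, a mean of 239 ± 132 CPM (SD, n = 6). The range of the intact dogs, 99.9 to 245 CPM, lay inside that of the neutered dogs, with 3 neutered tumours above it and 1 below. The log2 fold change of neutered against intact was 0.62 (SE 0.51, 95% interval -0.51 to 1.75) with an edgeR FDR of 0.948, and the exact permutation test gave a difference of 0.49 (p = 0.417, where 0.0119 is the smallest possible). The interval leaves room for a 3.35-fold higher level and for 0.700 of the intact level in neutered dogs. In this comparison 0% of 15073 genes were called at an FDR of 0.05 by edgeR, 793 genes (5.26%) had an unadjusted p under 0.05, and DESeq2 called 19 genes, among which PMEPA1 was not (FDR 0.966).

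The aspirates were then set beside the tissues. In the non-malignant samples PMEPA1 had a mean of 10.4 ± 10.3 CPM (SD, n = 5) in aspirates and 10.5 ± 4.54 CPM in tissue. The log2 fold change was -0.07 (SE 0.48, 95% interval -1.08 to 0.94) with an edgeR FDR of 0.94, where 0.0133% of genes were called at 0.00001 and 18.3% at 0.05. The exact permutation test on the log scale gave -0.29 (p = 0.522). The value rested on US-13. Without it the log2 fold change was -0.96 with an edgeR FDR of 0.13. US-13 had the fewest reads without KLK2 of all 25 libraries (2361751), 70.3% of its reads on no annotated gene, the highest such share, and 1.99% of globin reads, the highest of the non-malignant aspirates. The part of these in its PMEPA1 level was not tested.

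Malignant aspirates exceeded non-malignant tissue by a log2 fold change of 4.84 (SE 0.43, 95% interval 3.92 to 5.76), or 28.6-fold, with an edgeR FDR of 4.67e-06. At the threshold of 0.00001, 1.25% of genes were called. This call was close to its threshold: it was kept without PT-10 (FDR 4.79e-06) and without US-3 (log2 fold change 5.51, FDR 1.2e-06), but lost without any of the other 8 non-malignant tissues (FDR 1.2e-05 to 2.74e-05, log2 fold change 4.70 to 4.86) and without US-4 (log2 fold change 3.47, FDR 9.03e-05). Against the non-malignant aspirates, the log2 fold change was 4.90 (SE 0.83, 95% interval 3.03 to 6.77) with an edgeR FDR of 0.00381, where 28.5% of genes were called at 0.05. It was 3.51 without US-4, 5.62 without US-3 and 5.79 without US-13, each with an edgeR FDR under 0.05. Exact permutation tests gave p = 0.0182 against tissue and p = 0.0476 against aspirates, each the smallest these sample numbers allow, and 0.0424 and 0.0833 after adjustment. Both malignant aspirates came from neutered dogs and all non-malignant samples from intact dogs. Diagnosis and reproductive status therefore cannot be told apart in either contrast.

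Between malignant aspirates and malignant tissues no difference in PMEPA1 was detectable. The aspirates had a mean of 280 ± 249 CPM (SD, n = 2), with US-4 above all 9 tissues and US-3 between PT-8 and PT-3. The log2 fold change was 0.66 (SE 0.59, 95% interval -0.63 to 1.94) with an edgeR FDR of 0.64, where 2.65% of genes were called at 0.05, and the exact permutation p was 0.691. Without US-4 the log2 fold change turned to -0.69, and without US-3 it was 1.29, so its direction rested on single aspirates. US-4 and US-3 held 2.98% and 3.98% of globin reads. With the 5 globin genes also removed the log2 fold change was 0.62.

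The difference between malignant and non-malignant samples was 0.69 larger on the log2 scale in aspirates than in tissues (SE 0.80, 95% interval -0.96 to 2.34). Its edgeR FDR was 0.746, with 1.49% of genes called at 0.05. It was 1.60 without US-13 and -0.64 without US-4, with edgeR FDRs of 0.266 and 0.802. The interval includes a difference between the diagnoses up to 5.06-fold larger in aspirates and one 0.513 times that in tissue. Among aspirates all malignant samples, but no others, came from neutered dogs, so this interaction cannot tell diagnosis from reproductive status.

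**Figure D2:**
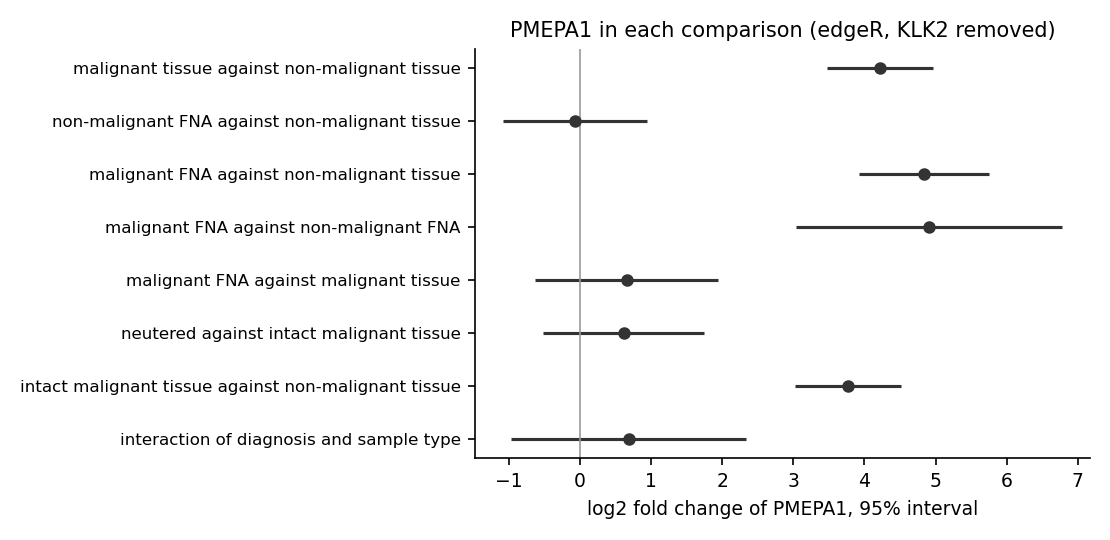
Log2 fold change of PMEPA1 in each comparison (points, first group against second) with its 95% interval (bars), from edgeR with KLK2 removed. The interaction is the difference between aspirates and tissues in the log2 fold change of malignant against non-malignant samples. The 4 comparisons of malignant with non-malignant samples lie between 3.77 and 4.90, and the intervals of the other 4 include 0.

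Whether PMEPA1 followed KLK2, the dominant secretory kallikrein of the canine prostate, was examined among the malignant tissues, since the diagnosis moves both genes. KLK2 was at 0.540 CPM in PT-1, with 3 reads, at a median of 8.47 CPM in PT-3 and at 657.7 CPM in PT-9, with 2928 reads. PT-9, the tumour with the most KLK2, had the lowest PMEPA1 of the 9 tissues, while PT-6, with 44.0 CPM of KLK2, had the highest PMEPA1. Pearson's r of log2(CPM + 1) was -0.478 (exact permutation p = 0.192, 0.657 adjusted over 24 relations, n = 9) and Spearman's rho -0.417 (exact permutation p = 0.27, 0.912 adjusted). Leaving out PT-1 and PT-9, the samples farthest from the median of KLK2, r was -0.159 (exact permutation p = 0.711). Without PT-6 alone r was -0.796 (exact permutation p = 0.00823, unadjusted), and without PT-9 alone it was -0.21. A relation of PMEPA1 to KLK2 in malignant tissue therefore rested on single tumours. Among the 11 malignant samples r was -0.412 (permutation p = 0.211), and among the 9 non-malignant tissues it was -0.447 (exact permutation p = 0.233).

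MKI67 was at 17.1 CPM in PT-3, at a median of 102 CPM in PT-5 and at 519 CPM in PT-1 among the malignant tissues. PT-6, highest in PMEPA1, had 169 CPM of MKI67, and PT-9, lowest in PMEPA1, had 25.6 CPM. Over the 9 tissues r was 0.77 (exact permutation p = 0.0194, 0.466 after adjustment over 24 relations) and rho 0.75 (exact permutation p = 0.0255, 0.612 adjusted), so the relation did not pass the correction. It did not rest on the extremes of MKI67: without PT-1 and PT-3 r was 0.882 (exact permutation p = 0.0204), and leaving out 1 tissue at a time gave 0.724 to 0.846. In the 6 neutered dogs r was 0.819 (exact permutation p = 0.05). With both aspirates added it was 0.578 over 11 samples (permutation p = 0.0635), US-4 having the highest PMEPA1 with only 47.6 CPM of MKI67. In the 9 non-malignant tissues, where MKI67 did not exceed 4.68 CPM, r was -0.416 (exact permutation p = 0.27).

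**Figure D3:**
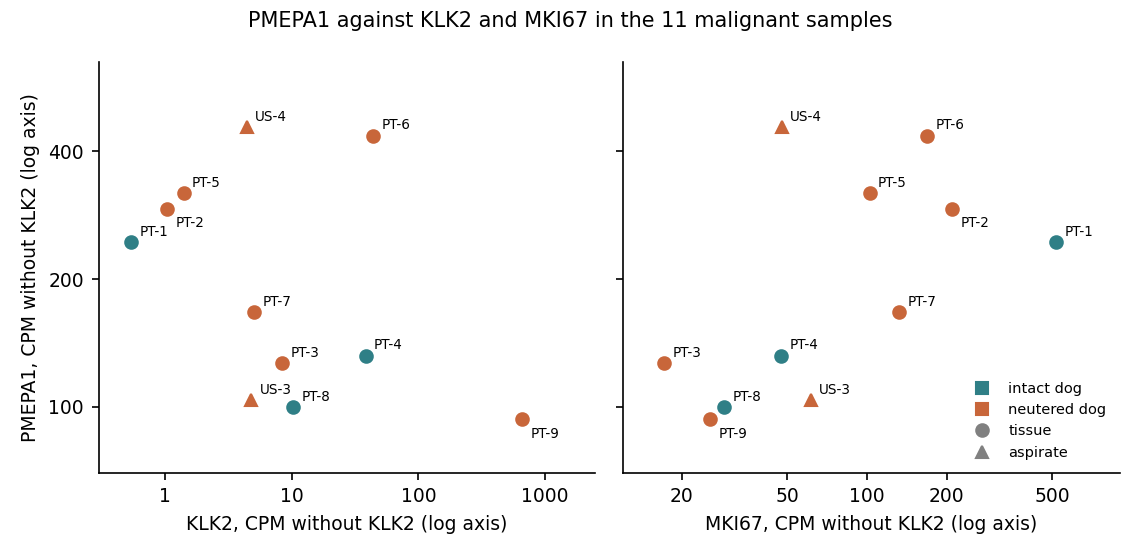
PMEPA1 against KLK2 (left) and MKI67 (right) in the 11 malignant samples, all in CPM without KLK2 on log axes, with tissues as circles, aspirates as triangles and reproductive status by colour. For MKI67 r was 0.77 over the 9 tissues (exact permutation p = 0.466 after adjustment over 24 relations) and 0.578 over all 11 samples. The left panel shows PT-9 apart from the rest at 657.7 CPM of KLK2.

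Many other genes followed PMEPA1 as closely in the malignant tissues. MKI67 was preceded by 359 of 15072 genes with a higher r, or 2.38%, and PCNA, with r = 0.38, by 27.4%. Beyond MKI67 and KLK2, the relations to KLK4 (0.301), ACPP (-0.453), CTNNB1 (0.146), MYC (-0.114) and the age of the dog (0.0533) in the 9 malignant tissues all had exact permutation p-values of 0.226 or more. The gene with the pattern most like PMEPA1 over these 9 tissues was ENSCAFG00000003738 (r = 0.978), and over all 25 samples it was ENSCAFG00000000789 (r = 0.96), the latter a likeness that includes the difference between the diagnoses. In the malignant tissues ENSCAFG00000003738 lay at only 0.674 to 15.7 CPM, with a median of 2.70 CPM. It was the highest of 15072 genes compared over 9 samples, so a high r can arise by chance. The files pair no names with these IDs. The genes of the TGF-beta pathway and the androgen receptor could not be matched by name and were not analysed here.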

How the data were processed

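RNA-Seq was performed on 25 canine prostate samples. The deposited files hold raw read counts per Ensembl gene, 1 file per sample. The submitters' processing notes name bcl2fastq 2.15.0.4, CASAVA, Trimmomatic 0.32, TopHat2, HTSeq and the genome build CanFam3.1, and the study's methods name single-read sequencing with a NEBNext Ultra RNA kit and htseq-count with its default settings. The methods also speak of mapped pairs and the file names of proper alignments, so whether a count is a read or a read pair is open, and counts are called reads here. The kit is not described as marking strand, whereas the default of htseq-count is stranded counting. In the RefSeq table of another dog assembly the lncRNA LOC119865702 overlaps PMEPA1, and reads of both cannot be told apart if the library did not mark strand. Reads on no gene (58.8 to 70.3%) and ambiguous reads (0.163 to 0.502%) were left out of totals.

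Groups came from the labelled diagnosis and sample type. The labels name no sequencing batch, and do not say that each sample is another dog. The dog of the aspirate US-3 also gave tissue. By the study's counts it was not among the malignant tissues, though the labels do not settle this. The p-values therefore measure the spread between these samples. No pair of libraries of the same group agreed within sampling noise, and pairs across groups were not examined. KLK2 was removed, genes were filtered with filterByExpr (minimum count 10, minimum total 15), and TMM factors and the quasi-likelihood test of edgeR 4.0.16 (R 4.3.3) were applied to the samples of each comparison, over all genes tested, with Benjamini-Hochberg adjustment. The FDR threshold was 0.00001 in the contrasts of malignant tissue and of both aspirate groups with non-malignant tissue, and 0.05 elsewhere, including intact dogs only. The interaction was fitted on all 25 samples. Single values were tested by two-sided exact permutation of log2(CPM + 1), with a pseudocount of 1 CPM, in Python 3.11.15 with NumPy 2.4.6. For relations with n of 10 or more, 100000 random permutations of the pairings were drawn. SciPy 1.17.1 gave the Wilson intervals and the Benjamini-Hochberg adjustment of these permutation tests. Wilson intervals (95%) cover counting error only, as reads without molecular identifiers are not independent molecules. The limit that a count of 0 allows is 3 counts.

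Named genes were PMEPA1, the genes that the study pairs with an Ensembl ID (KLK2, KLK4, ACPP, MKI67, PCNA, CTNNB1, MYC and 5 globin genes) and the genes with the highest r to PMEPA1. The gene and these lists were chosen with earlier results of these data known. The alternatives were DESeq2 1.42.0, its size factors, library totals without TMM, no filter, KLK2 kept, globin genes removed, a fit of all groups, the other FDR threshold and each sample left out. The restriction to neutered dogs was chosen after seeing the data. The edgeR script was tested on simulated data.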

Additional observations from a re-analysis of the deposited data

Results flagged for a closer look

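PMEPA1 in US-13, at 28.4 CPM, stood apart from the other 4 non-malignant aspirates by Dixon's test at the 95% level (gap over range 0.769, critical value 0.71). KLK2 in PT-9, at 657.7 CPM, stood apart from the other malignant tissues, both among all 9 and among the 6 of neutered dogs. MKI67 in PT-1, at 519 CPM, stood apart among the 9 malignant tissues. These were 4 of 12 combinations of gene and group examined, on the linear CPM scale, with the KLK2 value of PT-9 counted in both of its groups. Chance marks about 1 in 20 groups only where values are normally distributed. CPM values are skewed, so the number of flags cannot be set against that rate. The test was not run on the log scale used elsewhere.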

How the results depend on the processing

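In all 9 other settings and in each of 18 fits without 1 sample, PMEPA1 stayed called higher in malignant than in non-malignant tissue, with log2 fold changes of 4.21 to 4.39 and 4.02 to 4.40. Of these 9 settings, the FDR threshold of 0.05 could not lose a call made at 0.00001. Another was the restriction to neutered dogs, where status and diagnosis cannot be told apart. Leaving out 1 sample gave 3.53 to 4.04 for intact malignant tissue against non-malignant tissue, 3.51 to 5.79 for malignant against non-malignant aspirates, 3.47 to 5.51 for malignant aspirates against non-malignant tissue, -0.96 to 0.18 for non-malignant aspirates against tissue, -0.69 to 1.29 for malignant aspirates against tissue, 0.35 to 0.84 for neutered against intact, and -0.64 to 1.60 for the interaction. Where this left 1 aspirate, that sample was assumed to vary like the other group. At an FDR of 0.00001 the calls for intact malignant tissue (3.77) and for malignant against non-malignant aspirates (4.90) were lost. Without 1 sample, r ranged from -0.796 to -0.21 for KLK2 and from 0.724 to 0.846 for MKI67. For MKI67 it was 0.578 over 11 malignant samples and 0.819 in neutered dogs, no longer under a p of 0.05. The cause was not tested. Library totals without TMM moved the median log2 fold change of all genes between malignant aspirates and tissue from -0.09 to -0.35, and that of PMEPA1 from 0.66 to 0.40. No other change of setting altered a direction or a call of PMEPA1.

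In malignant against non-malignant tissue DESeq2, the method of the study, called 3591 of 18297 tested genes (19.6%), and edgeR 970 of 15124 (6.41%). The number of genes tested differed between some settings, so the counts below are not shares. DESeq2 called 449 genes against 2 by edgeR in non-malignant aspirates against non-malignant tissue, and 1604 against 189 in malignant aspirates. Between malignant aspirates and tissue it called 1182 against 400, between neutered and intact dogs 19 against 0, and for the interaction 599 against 225. Against non-malignant tissue, the fit of all groups called 0 genes in non-malignant and 503 in malignant aspirates, no filter called 38 and 652, and library totals without TMM called 124 in malignant aspirates. Between malignant aspirates and tissue the fit of all groups called 1189 and library totals 191, between neutered and intact dogs the fit of all groups called 13, and for the interaction library totals called 90 and no filter 127. PMEPA1 had the fewest reads, 10, in US-7. No paired analysis was possible because the labels give no replicate numbers and do not tie any aspirate to a tissue of the same dog.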
